A study of Mus musculus with 2 samples.

Results

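The genes described here are 10 components of the Notch pathway measured in nuclei of the fetal mouse brain. They are the ligand genes Dll1, Dll3 and Jag1, the receptor genes Notch1, Notch2 and Notch3, Mfng, whose product modifies the receptors, and the target genes Hes1, Hes5 and Hey1. They were chosen by symbol, and all 10 were found once each among the 55416 features of the deposited matrices. Single-nucleus RNA-seq was run on whole fetal brain from wildtype mice and from mice in which Cav1, the gene for the caveolar protein caveolin 1, was knocked out. How it was knocked out is not said in the labels. Each genotype had 1 library, and the fetal stage, the strain and the number of brains behind a library are not given in the sources used here. Differences between the genotypes therefore have no replicate check, and every interval below is a 95% interval for counting error only.

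Notch receptors sit in the membrane of one cell and are activated by Delta or Jagged ligands on a neighbouring cell. Cleavage then frees the intracellular part of the receptor, which enters the nucleus and, with the DNA-binding protein RBPJ, turns on Hes and Hey genes. In the embryonic brain the pathway is known for keeping radial glia, the neural stem cells, from becoming neurons, while newly committed neuronal progenitors present Delta ligands to them. In vessels it is known for acting between endothelial cells and the mural cells around them.

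The DNA before the transcription start is shown for a target, Hes5, which held the core motif of RBPJ, and for a ligand, Dll1, which did not. RefSeq promoters on the GRCm38.p6 build matched 7 members, while Hes1, Hey1 and Mfng had no entry. The 250 bases before the start were searched for TGGGAA and its reverse TTCCCA, which cannot overlap each other. Hes5 held 2 copies, 1 as TTCCCA beginning 226 bases before the start and 1 as TGGGAA beginning 82 bases before it. The other 6 matched members held 0 copies. Of 32851 mouse promoters, 21.6% had at least 1 copy and 2.77% had 2 or more. Capitals mark the motif in the Hes5 promoter (chr4:154960673-154960922, plus strand). The Dll1 promoter, 1 of its 2 entries (chr17:15375824-15376073, minus strand), is in lower case throughout because no copy was found.
Hes5 promoter: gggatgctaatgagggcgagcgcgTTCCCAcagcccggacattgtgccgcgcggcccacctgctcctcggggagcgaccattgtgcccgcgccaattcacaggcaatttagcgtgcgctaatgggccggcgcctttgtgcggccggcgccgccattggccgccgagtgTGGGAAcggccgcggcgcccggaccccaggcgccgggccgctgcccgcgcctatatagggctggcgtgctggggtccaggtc
Dll1 promoter: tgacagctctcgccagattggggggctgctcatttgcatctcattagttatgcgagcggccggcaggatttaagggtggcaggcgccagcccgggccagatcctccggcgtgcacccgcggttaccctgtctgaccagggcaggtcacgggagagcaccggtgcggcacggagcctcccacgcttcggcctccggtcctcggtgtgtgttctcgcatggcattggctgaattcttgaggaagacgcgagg

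The wildtype-labelled library kept 6686 nuclei with 17205381 UMIs, counts of individual captured RNA molecules, and the knockout-labelled library kept 6680 nuclei with 19878903 UMIs. The median nucleus held 2133.5 and 2366 UMIs. Cav1 itself gave 71 and 80 UMIs, or 4.13 and 4.02 CPM, the usual scaling of a gene's summed UMIs to a fixed library total, a log2 ratio of -0.04 (-0.52 to 0.45), so its counts did not separate the libraries and the names wildtype-labelled and knockout-labelled are used throughout. Clustering without the 10 genes and without 57 further pathway genes gave 31 clusters, of which 30 were named from marker genes, in 15 classes. In the paired values below the wildtype-labelled library comes first.

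Dll1, the main Delta ligand of neural progenitors (GRCm39 chr17:15587276-15597134, minus strand), stood at 107 (39.4 to 234) and 154 (101 to 226) CPM in oligodendrocyte precursor-like nuclei, from 6 and 26 UMIs. That level lay above those of the other classes in the knockout-labelled library, while in the wildtype-labelled library its interval held the level of the next class. Intermediate progenitor-like nuclei were named from Eomes and other markers of committed progenitors of cortical excitatory neurons. The 12 general neuron markers summed to 5908 and 6805 CPM there, against 2797 and 3091 CPM in radial glia-like nuclei. Whether the class also holds young neurons was not tested. Dll1 in intermediate progenitor-like nuclei was at 65.2 (47.9 to 86.7) and 60.9 (42.9 to 83.9) CPM. Radial glia-like nuclei held 42.4 (33.0 to 53.7) and 31.6 (23.5 to 41.5) CPM. Intermediate progenitor-like nuclei thus lay above radial glia-like nuclei by 0.62 (0.05 to 1.18) and 0.95 (0.30 to 1.59) on the log2 scale. Cortical excitatory neuron-like nuclei, used here as a reference level, were at 16.5 and 11.1 CPM. Whether that level is stray RNA was not tested, and it is not a floor for every gene. Mfng in neuron-like nuclei of no finer name was 0.356-fold and 0.434-fold its cortical level.

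Dll3, a divergent Delta protein that is held inside the cell (chr7:27992978-28001673, minus strand), gave 163 and 249 UMIs over all nuclei. In oligodendrocyte precursor-like nuclei it was at 107 (39.4 to 234) and 65.2 (32.5 to 117) CPM, from 6 and 11 UMIs. In intermediate progenitor-like nuclei it stood at 25.0 (14.8 to 39.5) and 21.4 (11.4 to 36.6) CPM, and in radial glia-like nuclei at 8.61 and 14.9 CPM, against 10.5 and 11.5 CPM in cortical excitatory neuron-like nuclei. The log2 ratio of radial glia-like nuclei to this neuronal reference was -0.28 (-1.30 to 0.66) and 0.37 (-0.48 to 1.21), so its direction differed between the libraries and was not resolved. For intermediate progenitor-like nuclei that ratio was 1.26 (0.34 to 2.13) and 0.90 (-0.17 to 1.90), so it was resolved in the wildtype-labelled library alone.

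Jag1, the Jagged ligand known from vessel walls and from neural stem cells (chr2:136923373-136958693, minus strand), had a different distribution. Its levels were 87.3 and 102 CPM in fibroblast-like, 79.9 and 67.9 CPM in mural cell-like, and 61.8 and 121 CPM in endothelial cell-like nuclei. The intervals of these 3 classes overlapped within each library. Radial glia-like nuclei held 34.4 and 40.9 CPM, which was 10.9-fold and 9.98-fold the 3.17 and 4.10 CPM of cortical excitatory neuron-like nuclei. Intermediate progenitor-like nuclei, high for Dll1, had 5 and 8 Jag1 UMIs, or 6.94 and 13.2 CPM.

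**Figure D1:**
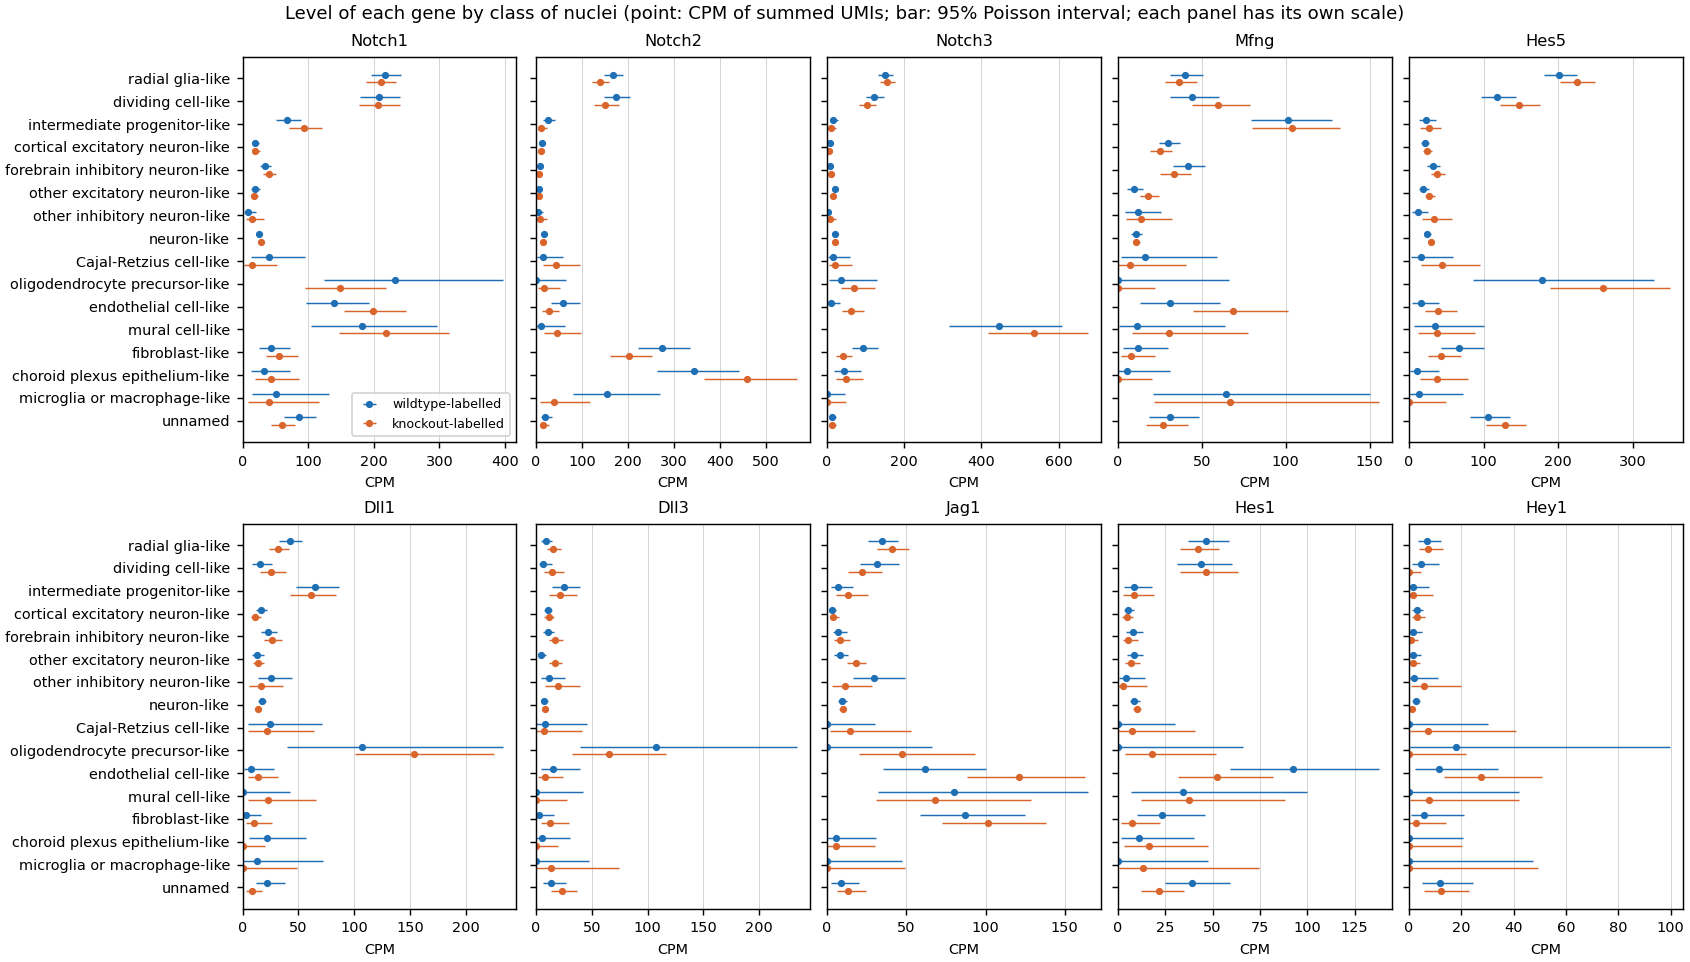
Level of each of the 10 genes (x axis, CPM of UMIs summed over a class; each panel has its own scale) in the 15 named classes and the unnamed cluster (y axis), with 95% Poisson intervals, for the wildtype-labelled (blue) and knockout-labelled (orange) libraries. Dll1 and Mfng are high in intermediate progenitor-like nuclei, where the 3 receptors and Hes5 are lower than in radial glia-like nuclei. Notch3 is highest in mural cell-like and Notch2 in choroid plexus epithelium-like nuclei.

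All 3 receptors were high in radial glia-like nuclei and low in neurons. Notch1 (chr2:26347915-26406675, minus strand) was at 218 (196 to 242) and 210 (189 to 234) CPM in radial glia-like nuclei. Dividing cell-like nuclei had 207 and 207 CPM, and cortical excitatory neuron-like nuclei 19.0 and 19.7 CPM. Radial glia-like nuclei held 9.45% and 8.13% of all UMIs but 34.9% and 29.5% of the Notch1 UMIs. Notch1 was also present in vessels, with 139 and 198 CPM in endothelial cell-like and 183 and 219 CPM in mural cell-like nuclei. Intermediate progenitor-like nuclei had 68.0 and 93.8 CPM, lower than radial glia-like nuclei by 1.68 (1.24 to 2.14) and 1.17 (0.76 to 1.60) on the log2 scale.

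Notch2 (chr3:97920800-98057677, plus strand) was highest in choroid plexus epithelium-like nuclei, the secretory lining of the ventricles, at 344 (263 to 440) and 458 (365 to 567) CPM. Fibroblast-like nuclei followed with 274 (221 to 335) and 203 (161 to 253) CPM, an interval that overlapped in the wildtype-labelled library, and radial glia-like nuclei held 167 and 139 CPM. The choroid plexus level was 2.05-fold and 3.30-fold that of radial glia-like nuclei. In endothelial cell-like nuclei Notch2 was lower, at 57.9 and 27.6 CPM.

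Notch3, the receptor known for its role in mural cells (chr17:32339794-32385893, minus strand), was highest in mural cell-like nuclei, at 445 (316 to 608) and 535 (418 to 675) CPM from 33 and 40 nuclei. That was 2.95-fold and 3.46-fold the level of radial glia-like nuclei, which held 151 and 155 CPM. The step from radial glia-like to intermediate progenitor-like nuclei was larger for Notch3 than the figure for Notch1 given above, with Notch3 at 15.3 and 11.5 CPM in the latter, lower by 3.30 (2.44 to 4.32) and 3.75 (2.68 to 5.08) on the log2 scale. Notch2 lay between, lower by 2.67 (1.99 to 3.42) and 3.59 (2.52 to 4.92). Genes on the opposite strand overlap Dll1, Notch1 and Notch3, among other members, in the GRCm39 annotation, and whether counting used the strand is not stated. Fam120b, at Dll1, had 872 and 1068 UMIs of its own, more than the 375 and 370 of Dll1. 0610009E02Rik, at Notch1, had 262 and 304 UMIs, and Gm17276, at Notch3, had 338 and 414.

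Mfng, manic fringe, a Golgi enzyme that adds sugars to Notch receptors and changes which ligands they answer to (chr15:78640074-78657718, minus strand), was highest in intermediate progenitor-like nuclei, at 101 (79.4 to 127) and 104 (79.7 to 133) CPM. The intervals of microglia or macrophage-like nuclei, with 5 UMIs in each library, and of knockout-labelled endothelial cell-like nuclei overlapped this level. It was 2.53-fold and 2.84-fold the 40.0 and 36.5 CPM of radial glia-like nuclei. Of the 2 intermediate progenitor-like clusters, cluster 16, where Eomes itself was a leading gene, held 178 and 181 CPM, and cluster 21 held 24.9 and 43.8 CPM. Notch1 in cluster 16 was at 83.4 and 147 CPM, Notch2 at 36.1 and 18.9 CPM and Notch3 at 25.0 and 15.1 CPM, each under the level of radial glia-like nuclei. Oligodendrocyte precursor-like nuclei, in which both Delta ligands were found, had 0 Mfng UMIs in both libraries, which allows up to 66.0 and 21.9 CPM by the exact Poisson limit.

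Hes5, a transcriptional repressor and the best known Notch target of neural stem cells (chr4:155045373-155046828, plus strand), was at 202 (180 to 225) and 225 (203 to 250) CPM in radial glia-like nuclei. Oligodendrocyte precursor-like nuclei overlapped them, with 179 (85.8 to 329) and 261 (189 to 350) CPM, and dividing cell-like nuclei held 118 (96.8 to 143) and 147 (122 to 176) CPM. Intermediate progenitor-like nuclei had 22.2 and 26.3 CPM, close to the 21.2 and 23.8 CPM of cortical excitatory neuron-like nuclei, the reference level. With each nucleus thinned to 1000 UMIs, Hes5 was found in 18.1% and 18.5% of radial glia-like nuclei. The cortical excitatory neuron-like share was 2.54% and 2.31%, and the median depths before thinning were 1986.5 and 2171 UMIs for the former class and 2247 and 2424 UMIs for the latter.

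Hes1, a related repressor (chr16:29882134-29886643, plus strand), was highest in endothelial cell-like nuclei, at 92.7 (59.4 to 138) and 52.3 (31.5 to 81.7) CPM. Radial glia-like nuclei held 46.7 and 42.1 CPM and dividing cell-like nuclei 44.0 and 46.3 CPM. Endothelial and radial glia-like intervals did not overlap in the wildtype-labelled library and overlapped in the other. Hes5, by contrast, gave 4 and 14 UMIs in endothelial cell-like nuclei, or 15.4 and 38.6 CPM. Hey1, a target best known from endothelium (chr3:8726956-8732385, minus strand), gave 57 and 56 UMIs in all. Endothelial cell-like nuclei had 3 and 10 of them, or 11.6 and 27.6 CPM, against 6.76 and 7.43 CPM in radial glia-like nuclei. The log2 ratio of endothelial to radial glia-like nuclei was 0.78 (-1.70 to 2.70) in the wildtype-labelled and 1.89 (0.52 to 3.23) in the knockout-labelled library. Against cortical excitatory neuron-like nuclei it was 2.02 (-0.50 to 4.02) and 3.26 (1.72 to 4.89), so Hey1 was above both references in 1 of the 2 libraries and not resolved in the other.

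The classes can be read together through the contrast of radial glia-like with cortical excitatory neuron-like nuclei, which the clustering made without these genes. In both libraries 8 of 10 members were at least 2-fold higher in radial glia-like nuclei, all but Mfng and Dll3. Over all genes with at least 100 UMIs in the contrast, 10.7% were so in the first library and 10.9% in the second. Of the members, 6 and 5 reached that minimum, and 5 and 4 of these were 2-fold higher, Mfng being the exception in both. The largest ratio was that of Notch3, 22.6-fold and 31.5-fold. Hey1, at 2.37-fold and 2.59-fold, rested on 20 and 19 UMIs, and its log2 intervals, -0.16 to 2.69 and -0.09 to 2.96, included 0. Dll1 was 2.57-fold and 2.85-fold higher, Mfng 1.33-fold and 1.46-fold, and Dll3 stood at 0.823-fold and 1.30-fold.

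The radial glia-like class was made of 4 clusters that differed in these genes. Cluster 15, led by Cyp26b1, Pax3 and Tnc, had the highest Hes5, at 346 and 344 CPM, and the highest Notch3, at 247 and 236 CPM. Its Notch2 was the lowest of the 4, at 83.3 and 103 CPM. Cluster 17, with the astrocyte genes Aldh1l1 and Acsbg1 among its leading genes, held 227 and 317 CPM of Hes5 and the highest Notch1, at 269 and 329 CPM. Cluster 5, led by Creb5, Tfap2c and Gli3, was at 156 and 125 CPM of Hes5. Cluster 22, led by the Wnt agonist genes Rspo1, Rspo2 and Rspo3, was lowest for Hes5, at 133 and 86.1 CPM, and for Dll1, at 12.1 and 11.7 CPM from 3 UMIs in each library.

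**Figure D2:**
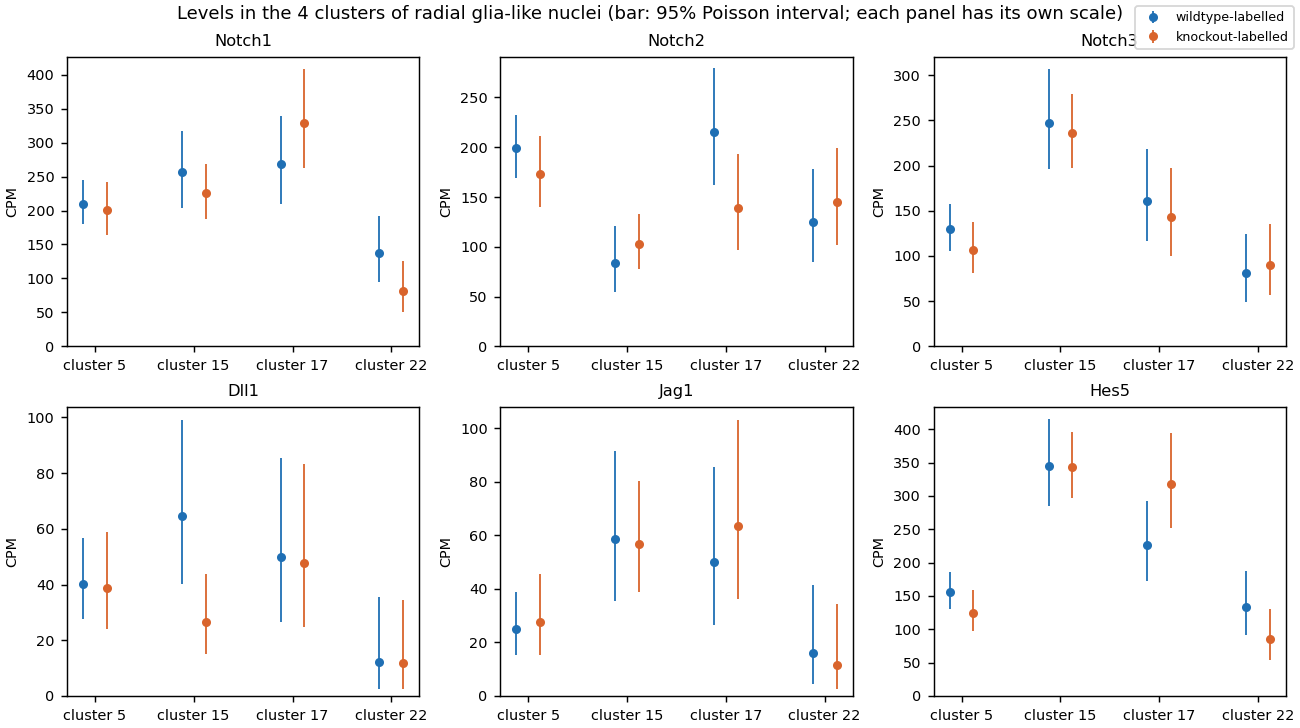
Levels of 6 of the genes (y axis, CPM with 95% Poisson interval; each panel has its own scale) in the 4 clusters of radial glia-like nuclei (x axis) for the wildtype-labelled (blue) and knockout-labelled (orange) libraries. Hes5 and Notch3 are highest in cluster 15 in both libraries, and Dll1 in cluster 15 is 64.8 CPM (wildtype-labelled) and 26.6 CPM (knockout-labelled).

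The labels set wildtype against Cav1 knockout, and the series title asks what caveolin 1 does in metabolic programming of the fetal brain. Over all nuclei, 0 of 10 members differed 1.5-fold or more between the libraries, where 2.72% of the 15528 genes with at least 100 UMIs did, a minimum that all 10 reached. The median log2 ratio of the members, knockout-labelled over wildtype-labelled, was -0.10, against -0.01 over all these genes. Among the receptors Notch2 was lower under the knockout label, with 46.3 and 36.8 CPM from 797 and 731 UMIs, a log2 ratio of -0.33 (-0.48 to -0.19). Notch1 and Notch3 had ratios of -0.03 (-0.15 to 0.10) and -0.02 (-0.18 to 0.13). The ligands differed in sign: Dll1 was at -0.23 (-0.44 to -0.02), Dll3 at 0.40 (0.11 to 0.70) and Jag1 at 0.30 (0.06 to 0.54). Among the targets Hes5 was at 0.20 (0.07 to 0.33), Hes1 at -0.18 (-0.43 to 0.06) and Hey1 at -0.23 (-0.79 to 0.32), and Mfng was at -0.17 (-0.35 to 0.02). With 1 library a group, none of these can be set against the spread between animals.

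Sums over all nuclei also move with the share of each class. Radial glia-like nuclei made up 10.9% and 9.75% of the libraries, and intermediate progenitor-like nuclei 4.59% and 3.26%. Neuron-like nuclei of no finer name were 19.6% and 26.3%. The part of these shares in the ratios above was not tested. Ratios within a class do not depend on its size, but they can move with the mix of clusters inside it. That part was not tested either. Counting only named classes with at least 20 UMIs of a gene, Notch2 was lower under the knockout label in 9 of 10 classes. Hes5 was higher in 8 of 9, Jag1 in 7 of 8 and Dll3 in 5 of 6, and Hes1 was lower in 5 of 7. Notch1 was higher in 7 of 11, Notch3 in 5 of 9, Dll1 in 4 of 8 and Hey1 in 1 of 2. Mfng, lower over all nuclei, was higher in 5 of 8. The classes of 1 library share its preparation and are not replicates. No such tally is given over all genes, so these counts of classes have no background beside them.

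In radial glia-like nuclei, 1 of 10 members was 1.5-fold or more apart, against 3.78% of the 6805 genes with at least 100 UMIs there, a minimum that 8 members reached. That was Dll3, with 14 and 24 UMIs and a ratio, as log2, of 0.79 (-0.22 to 1.85). Among the receptors Notch2 was at -0.27 (-0.53 to -0.01), Notch1 at -0.05 (-0.27 to 0.17) and Notch3 at 0.04 (-0.22 to 0.30). The other ligands were at -0.43 (-0.98 to 0.12) for Dll1 and 0.25 (-0.29 to 0.79) for Jag1. Hes5 was at 0.16 (-0.06 to 0.38), Hes1 at -0.15 (-0.64 to 0.34), Hey1 at 0.14 (-1.17 to 1.46) and Mfng at -0.13 (-0.66 to 0.40). The Hes5 value for the class did not hold within its clusters: the ratio was -0.32 in cluster 5, -0.01 in cluster 15 and -0.63 in cluster 22, and 0.49 (-0.02 to 1.00) in cluster 17. Cluster 15, high in Hes5, held 122 wildtype-labelled and 198 knockout-labelled nuclei. Dll1 differed most in that same cluster, with 21 and 15 UMIs and a ratio, as log2, of -1.28 (-2.34 to -0.26), a gene and cluster singled out after their values were seen.

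**Figure D3:**
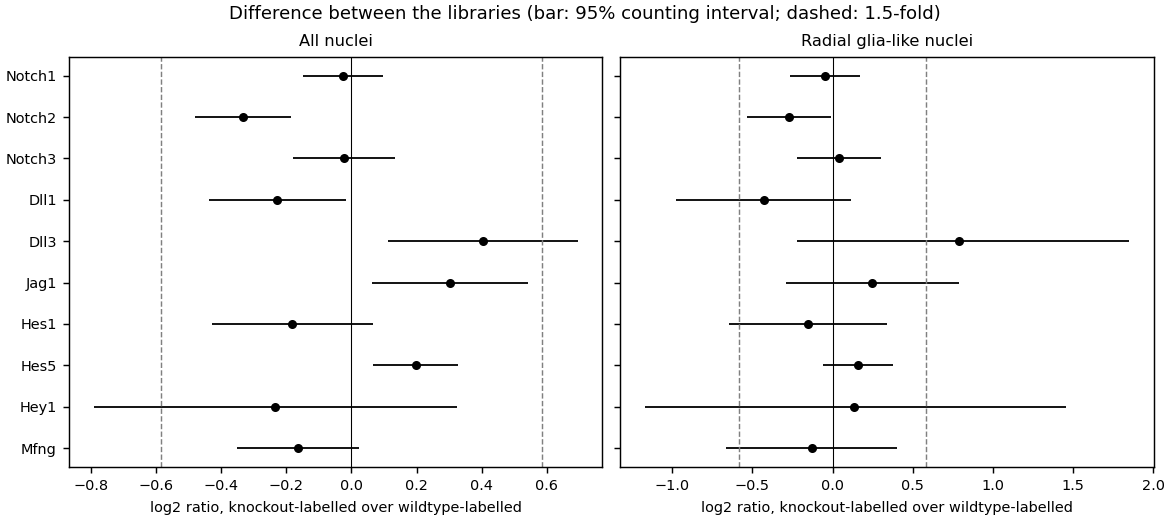
Log2 ratio of CPM, knockout-labelled over wildtype-labelled library (x axis), for each of the 10 genes (y axis) over all nuclei (left) and in radial glia-like nuclei (right), with 95% counting intervals. Dashed lines mark 1.5-fold; over all nuclei every point lies between them, and in radial glia-like nuclei Dll3 lies beyond, at 0.79.

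Over all classes, 78 combinations of a member and a named class had at least 20 UMIs. In 7 of them (8.97%) the counting interval lay to one side of 0, against 9.88% of the 124616 combinations of any gene and a named class with as many UMIs, so the members' share was near the background. Besides Notch2 in radial glia-like nuclei, the 7 fell in 3 classes and are given as values. In endothelial cell-like nuclei Notch3 gave 3 and 23 UMIs, a log2 ratio of 2.45 (0.73 to 4.83), and Jag1 gave 16 and 44, a ratio of 0.97 (0.12 to 1.90). The 9 mural markers summed to 205 and 537 CPM in the same nuclei, with 6 and 8 of them detected, against 3456 and 2707 CPM in mural cell-like nuclei, and their part in the Notch3 difference was not tested. The 10 endothelial markers summed to 5439 and 8191 CPM. In fibroblast-like nuclei Notch3 gave 32 and 16 UMIs, a ratio of -1.20 (-2.16 to -0.29), while mural markers there were at 224 and 394 CPM, the opposite direction.

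The third class was the other excitatory neuron-like nuclei, those with Slc17a6 and midbrain, thalamic or hindbrain markers. Dll3 gave 9 and 36 UMIs there, a log2 ratio of 1.84 (0.76 to 3.08), Jag1 16 and 39, a ratio of 1.13 (0.26 to 2.07), and Mfng 18 and 39, a ratio of 0.96 (0.12 to 1.85). Most of the Dll3 and Mfng counts of the knockout-labelled library came from 1 of the 3 clusters, cluster 19, led by Ebf2, Ebf3, Lef1 and Barhl1. Its 88 and 151 nuclei gave 1 and 28 UMIs of Dll3, or 4.74 and 72.3 CPM, and 5 and 30 UMIs of Mfng, or 23.7 and 77.5 CPM. Cluster 19 was singled out after its values were seen. In cluster 7 both genes were lower under the knockout label, with 7 and 4 UMIs of Dll3 and 9 and 6 of Mfng. Cluster 13 gave 1 and 4 UMIs of Dll3 and 4 and 3 of Mfng. In clusters 7 and 13 the intervals of both genes included 0. Jag1 was higher under the knockout label in all 3 clusters, by 0.75, 1.10 and 0.97 on the log2 scale in clusters 7, 13 and 19, each with an interval that included 0.

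Ligand, receptor and target RNA were then followed in single nuclei, each thinned to 1000 UMIs. A nucleus was called positive for a kind of gene if it held at least 1 UMI of any of its 3 members. Among radial glia-like nuclei, 7.87% and 6.67% were ligand-positive, 41.0% and 38.7% receptor-positive, and 22.2% and 22.1% target-positive, from 686 and 615 nuclei. Without thinning the shares were 14.9% and 14.3%, 61.4% and 64.2%, and 37.2% and 37.5%. The reference share in cortical excitatory neuron-like nuclei at the same 1000 UMIs was 2.79% and 3.03% for ligands, 3.30% and 3.52% for receptors and 3.39% and 3.16% for targets. Intermediate progenitor-like nuclei were ligand-positive in 7.85% and 9.52%, a share whose interval overlapped that of radial glia-like nuclei, and receptor-positive in 11.9% and 13.8%. Their target share, 4.44% and 3.81%, was close to the reference share.

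The remaining classes split by kind. Mural cell-like nuclei were mostly receptor-positive, at 57.6% and 62.9%, with targets at 6.06% and 11.4%. Choroid plexus epithelium-like nuclei were receptor-positive in 40.9% and 46.3%, through Notch2. At 1000 UMIs 0 of 44 and 0 of 41 were ligand-positive. By the exact binomial limit this allows shares of nuclei with a ligand UMI of up to 8.04% and 8.60% at that depth. Without thinning 5 of 45 (11.1%) and 1 of 44 (2.27%) held a ligand UMI. Oligodendrocyte precursor-like nuclei had the highest ligand shares, 20.0% and 23.9% of 20 and 46 nuclei, with intervals that overlapped those of endothelial cell-like nuclei. Endothelial cell-like nuclei were positive for all 3 kinds, at 13.6% and 22.2% for ligands, 20.5% and 27.0% for receptors and 13.6% and 20.6% for targets.

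**Figure D4:**
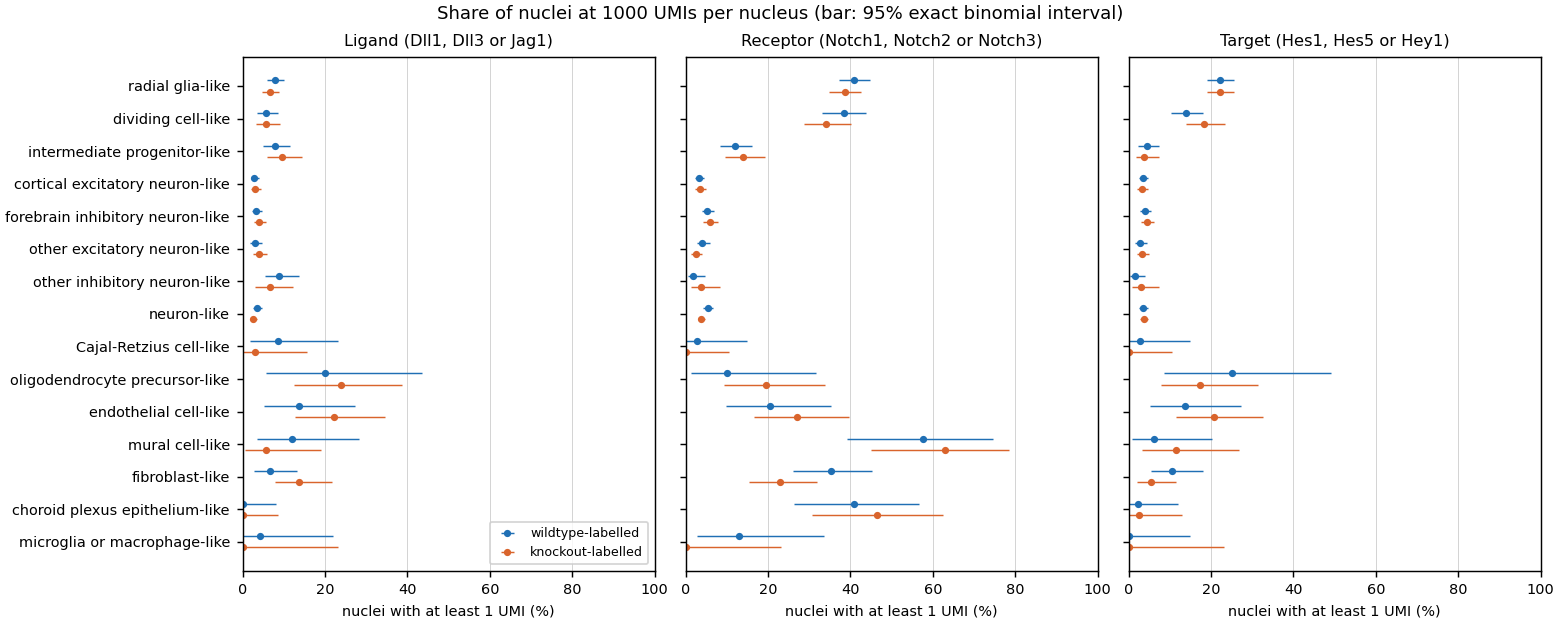
Share of nuclei with at least 1 UMI (x axis, percent, with 95% exact binomial interval) of a ligand, a receptor or a target gene at 1000 UMIs per nucleus, by class (y axis), for the wildtype-labelled (blue) and knockout-labelled (orange) libraries. Radial glia-like nuclei are high for receptors (41.0% and 38.7%) and targets, and intermediate progenitor-like nuclei reach a similar ligand share with a receptor share of 11.9% and 13.8%.

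Within the radial glia-like class, target RNA was compared between ligand-positive and ligand-negative nuclei, and the shares differed by less than their counting error. In the wildtype-labelled library 11 of 54 ligand-positive nuclei (20.4%) were target-positive, against 141 of 632 ligand-negative nuclei (22.3%). The difference was -1.94 percentage points (-11.2 to 11.0). Under the knockout label they were 7 of 41 (17.1%) and 129 of 574 (22.5%), a difference of -5.40 points (-14.7 to 9.15). These intervals are wide enough to hold a sizeable difference of either sign. Receptor RNA was found in 38.9% of ligand-positive and 41.1% of ligand-negative nuclei in the wildtype-labelled library, and in 34.1% and 39.0% in the other. Nuclei with all 3 kinds were rare, 3 of 686 and 6 of 615, whereas 42.3% and 44.7% had none detected, which at 1000 UMIs is not absence.

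Single genes within these sums went in opposite directions. Notch1 was found in 25.9% of ligand-positive and 20.9% of ligand-negative radial glia-like nuclei under the wildtype label, and in 24.4% and 18.5% under the knockout label. Notch2 was found in 7.41% and 14.6%, and in 7.32% and 15.5%. For Dll1 alone, Notch1 was found in 10 of 28 Dll1-positive nuclei (35.7%) against 20.7% of the rest, and in 6 of 18 (33.3%) against 18.4%. Each of these differences had an interval that included 0 in both libraries, that of Notch1 with Dll1 running from -0.31 to 33.7 and from -2.46 to 38.0 points.

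**Figure D5:**
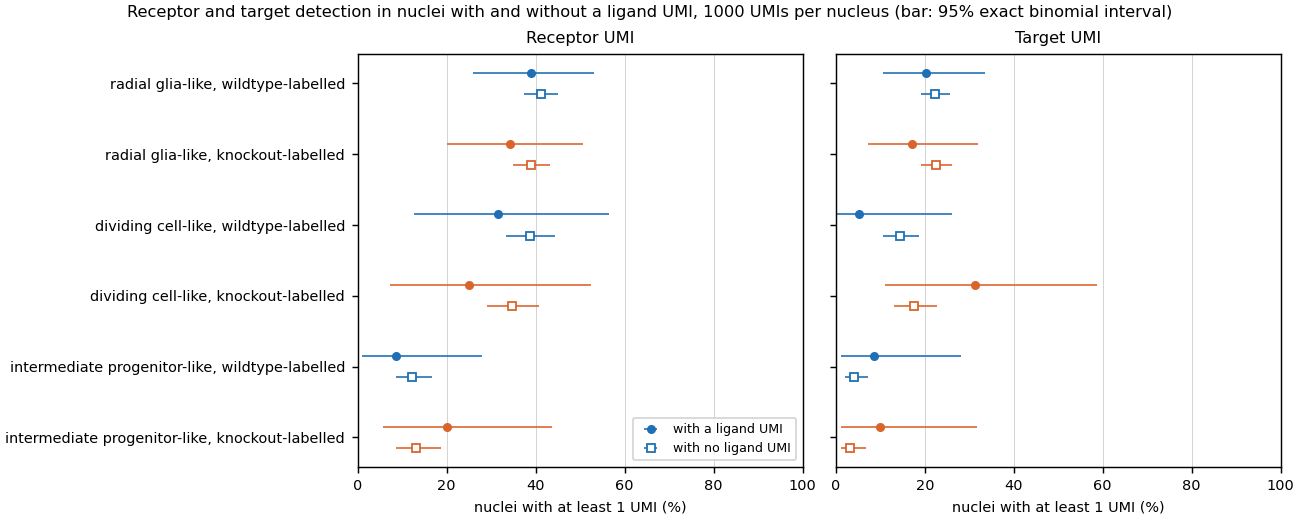
Share of nuclei with a receptor UMI (left) or a target UMI (right) (x axis, percent, with 95% exact binomial interval) among nuclei with a ligand UMI (filled circles) and without one (open squares), at 1000 UMIs per nucleus, for radial glia-like, dividing cell-like and intermediate progenitor-like nuclei and both libraries (y axis). In radial glia-like nuclei the target shares are 20.4% and 22.3% (wildtype-labelled) and 17.1% and 22.5% (knockout-labelled), with overlapping intervals.

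Neurog2, a proneural factor that drives neuronal commitment and is known to switch on Delta ligands, was followed in the same nuclei. It was found in 11.1% of ligand-positive and 6.01% of ligand-negative radial glia-like nuclei in the wildtype-labelled library, a difference of 5.10 points (-1.19 to 16.3). In the knockout-labelled library it was found in 14.6% and 6.45%, a difference of 8.19 points (0.10 to 22.1). Hes6, which opposes Hes1 and accompanies neuronal commitment, was found in 11.1% and 9.02%, a difference of 2.09 points (-4.33 to 13.4), and in 17.1% and 6.62%, a difference of 10.5 points (1.59 to 24.8). For both genes the interval included 0 in the wildtype-labelled library and lay above 0 in the knockout-labelled library, from 54 and 41 ligand-positive nuclei. Whether the libraries differed in this was not tested. Many other pairs of ligand and partner genes were compared in the same way. No share of intervals to one side of 0 is given over those pairs. In intermediate progenitor-like nuclei Neurog2 was found in 26.1% of ligand-positive and 20.4% of ligand-negative nuclei, a difference of 5.72 points (-8.79 to 26.6). In the knockout-labelled library it was found in 45.0% and 18.9%, a difference of 26.1 points (5.91 to 47.4) from 20 ligand-positive nuclei.

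The wider pathway was taken from a list of 57 genes, of which 49 had at least 100 UMIs. In the knockout-labelled library 1 was at least 1.5-fold higher and 0 were lower, beside the 2.72% of all genes, and the median log2 ratio was -0.00. The 1 gene was Dlk1, a non-canonical ligand, with 219 and 449 UMIs and a ratio of 0.83 (0.59 to 1.07). The lowest was Neurog2, with 792 and 687 UMIs and a ratio of -0.41 (-0.56 to -0.26). Rbpj, the nuclear partner of all Notch receptors, was at -0.11 (-0.20 to -0.02). Mib1, the ubiquitin ligase that activates ligands, was at 0.04 (-0.04 to 0.13), and Numb, an inhibitor of Notch, at -0.05 (-0.15 to 0.05). Nrarp, a feedback inhibitor, was at -0.03 (-0.42 to 0.36), and Hes6 at -0.19 (-0.32 to -0.05). Among further ligand genes Dner was at 0.34 (0.28 to 0.40), Jag2 at 0.22 (0.04 to 0.41) and Dll4 at 0.47 (-0.08 to 1.02). In radial glia-like nuclei Dner was at 0.50 (0.18 to 0.82) and Neurog2 at -0.39 (-0.75 to -0.03).

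By class, Dll4, the endothelial Delta ligand, gave 77.2 and 121 CPM in endothelial cell-like nuclei and 0.615 and 1.24 CPM, from 1 and 2 UMIs, in radial glia-like nuclei. Notch4 was at 34.7 and 57.9 CPM against 1.23 and 0.619 CPM. In mural cell-like nuclei it gave 7 and 3 UMIs among the 87663 and 132597 UMIs of all genes there. Scaled to CPM, that mural level lay above the endothelial one in the wildtype-labelled library and below it in the other, on few UMIs. Jag2 was at 104 and 138 CPM in endothelial cell-like and 3.07 and 6.81 CPM in radial glia-like nuclei, but was also present in neurons, with 37.5 and 39.2 CPM in neuron-like, 41.7 and 41.1 CPM in other excitatory neuron-like and 57.0 and 51.3 CPM in Cajal-Retzius cell-like nuclei. Heyl gave 68.4 and 75.4 CPM in mural cell-like nuclei, where Notch3 was highest. Lfng, lunatic fringe, was at 40.0 and 52.0 CPM in radial glia-like nuclei and gave 0 and 4 UMIs in intermediate progenitor-like nuclei, the reverse of its relative Mfng. Rfng was at 17.2 and 16.1 CPM in radial glia-like and 25.0 and 19.8 CPM in intermediate progenitor-like nuclei. Numb was at 172 (152 to 193) and 160 (141 to 181) CPM in radial glia-like and 67.8 (59.0 to 77.5) and 75.4 (64.9 to 87.1) CPM in cortical excitatory neuron-like nuclei. Mib1 was at 154 and 178 CPM against 110 and 108 CPM, and Rbpj at 156 and 152 CPM against 117 and 119 CPM. Rbpj was also at 198 and 171 CPM in intermediate progenitor-like and 88.8 and 74.4 CPM in endothelial cell-like nuclei. Dner, a Delta-like protein of neurons, was at 140 and 154 CPM in cortical excitatory neuron-like and 87.9 and 124 CPM in radial glia-like nuclei. It was higher in neuron-like (323 and 379 CPM), forebrain inhibitory neuron-like (290 and 287 CPM) and other excitatory neuron-like nuclei (270 and 316 CPM).

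The genes whose levels followed a member most closely over 30 clusters were ranked by Pearson's r of log2(CPM + 1), with both libraries summed. This is a description across clusters, which share libraries and depth. For Hes5 they were Psat1 (0.871), Chst3 (0.869), Sall3 (0.862), Aif1l (0.861) and Rgcc (0.853). For Notch1 they were Cbfb (0.912), Tead2 (0.898), Dtl (0.886), Myo10 (0.884) and Cdk2 (0.883). For Dll1 the nearest were further off, Gm37608 (0.697), Adgrg1 (0.694), Rnf180 (0.683), Mir9-3hg (0.668) and Rab8b (0.654). Among the members themselves Hes5 was nearest to Notch1 (0.756), and Dll1 was nearest to Dll3 (0.513). Notch3 and Hes1 (0.816) were the closest pair, and Dll1 with Hes1 (0.015) had almost no relation.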

How the data were processed

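The authors deposited raw UMI counts per gene and barcode; Cell Ranger 6.1.1 is named per the file headers, while the submitters' processing notes list Cell Ranger 3.0.1, STAR and GRCm39. Whether intronic reads or the strand were used is not given in the sources used here. Barcodes with at least 500 genes and at most 5% mitochondrial UMIs were kept; 2969 and 3904 fell under the gene minimum, and 108 and 227 of the rest over the mitochondrial limit. No doublets were removed: Scrublet's automatic threshold marked 0 nuclei per library, so the caller had not worked. Both libraries shared 10 kept barcodes.

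Nuclei were clustered with scanpy 1.11.5 (10000 UMIs per nucleus, log, 2000 variable genes, 30 components, 15 neighbours, Leiden resolution 1). A class name, ending in -like, is not the authors' annotation. It needed at least 3 markers 2-fold above the other clusters and 1.5-fold within each library. The neuron-like class was the exception. Its 4 clusters fell short of this and were named from at least 3 general neuron markers 2-fold above the pooled non-neuronal clusters. No check within each library was made for them. Cluster 1, with 630 and 964 nuclei of low depth led by ribosomal and haemoglobin genes, stayed unnamed. UMIs were summed per class and library and scaled to CPM. Intervals are exact Poisson (CPM), conditional binomial (ratios), Clopper-Pearson (shares) and Newcombe (differences of shares), all at 95%. Only the interval of ratios was tested on simulated data, drawn as Poisson counts with no spread between nuclei. Thinning to 1000 UMIs left out 846 and 1111 shallower nuclei. Positions of the genes come from GENCODE on GRCm39, where 98.8% of features matched. All members are named in the comparisons of libraries over all and radial glia-like nuclei, and of the wider list those past 1.5-fold with at least 100 UMIs and a preset group. The members and lists were chosen with earlier results of these data known. Alternatives covered the gene minimum, doublet scores, clustering, scaling, fold, UMI minimum, depth and shared barcodes. A gene of the wider list is not reported here.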

Additional observations from a re-analysis of the deposited data

Results flagged for a closer look

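The 10 genes also gave UMIs in barcodes that the filter on genes and mitochondrial UMIs left out, which no comparison above used. In the wildtype-labelled library 3077 such barcodes held 612 UMIs of the members, or 332 CPM, against 283 CPM in the kept nuclei. In the knockout-labelled library 4131 such barcodes held 917 UMIs, or 349 CPM, against 277 CPM. Hes5 made up 184 and 330 of these UMIs.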

How the results depend on the processing

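No paired analysis was possible because each genotype has 1 library. The count of members 1.5-fold or more apart in radial glia-like nuclei, 1 as reported, was 2 at Leiden resolution 2 (Dll1 and Dll3), 0 at a 2-fold threshold and 0 with a minimum of 100 UMIs. The other 36 recomputed main results counted as unchanged, among them 0 of 10 over all nuclei. A count did so if it was equal to the reported one or within 1.5-fold of it. A difference in target share did so if it lay in the reported interval, which is wide enough to hold changes of sign. The direction of a member's ratio was kept in 39 of 40 recomputations over all nuclei, the exception being Notch1 with a minimum of 1000 genes, and in 64 of 70 in radial glia-like nuclei. The median log2 gene ratio subtracted in the scaling alternative was -0.01 over all nuclei and -0.04 in radial glia-like nuclei. Of the recomputed values of single genes, 211 stayed within their interval and 19, all of them CPM in radial glia-like nuclei, did not, with wildtype-labelled Hes5 between 173 at resolution 0.5 and 233 with the highest doublet scores left out. The difference in target share ran from -5.63 to 8.67 points in the wildtype-labelled and from -13.3 to 2.29 points in the knockout-labelled library, each with an interval including 0, so its sign is not settled. Leaving out the shared barcodes was added after the data were seen. Depth limits what can be read from Hey1, from Dll3 and from the classes with fewer than 100 nuclei in a library.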
